A study of Mus musculus with 34 samples.

Results

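The low-density lipoprotein (LDL) receptor family was described here through 9 genes, Lrp1, Lrp4, Lrp5, Lrp6, Lrp8, Lrp10, Vldlr, Lrpap1 and Sorl1, among the 25965 entries of a table of RNA-seq read counts of mouse cumulus cells (CCs). The genes were taken by symbol as receptors of the family, a related sorting receptor (Sorl1) and the chaperone of the family (Lrpap1). The set was chosen by measured values of Lrp1, which was low after 16 weeks of high-fat diet (HFD) and higher in mice that gained little weight on it. All comparisons among the 16-week diet groups are therefore given as a description. No p-value is printed for them, and nothing is read from the counts of genes called there. The 34 libraries came from female C57BL/6J mice that entered the protocols at 8 weeks of age, and all mice were superovulated before collection. CCs are granulosa cells that enclose the egg in the follicle. In the diet-induced obesity protocol, mice ate chow diet (CD) or HFD for 4 weeks (n = 5 and n = 5) or for 16 weeks (n = 6 and n = 7). The labels give 11% of energy from fat in CD and 58% in HFD, whereas the study's methods give slightly different contents. A further 3 libraries came from low weight gainers, mice on HFD for 16 weeks. In the hyperleptinemia protocol, saline (16 C, n = 3) or leptin at 100 µg a day (16 L, n = 5) was injected intraperitoneally in 2 daily doses over 16 days. Each library was made from about 50 CCs, of 1 cumulus-oocyte complex by the labels and of 1 animal by the study's methods. The 16 L and 16 C mice thus differed from the diet groups in handling and in age at collection as well as in treatment.

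Receptors of this family are single-pass membrane proteins that bind lipoproteins, proteases and their inhibitors through clusters of cysteine-rich repeats and carry them into endosomes. Some members also act at the cell surface as signalling receptors, LRP5 and LRP6 for Wnt ligands and VLDLR and LRP8 for reelin. In the ovary, granulosa cells take up lipoproteins as a source of cholesterol for steroid synthesis.

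The members lie on 8 chromosomes. By the coordinates of the count table, which overlap the genes of the same name in GENCODE M21 on GRCm38, Lrp1 spans chr10:127538161-127621148 on the minus strand, with 17717 bases of merged exon. Lrpap1 spans chr5:35091490-35105766 on the minus strand and Lrp10 chr14:54464164-54471497 on the plus strand. Vldlr spans chr19:27216484-27254231 (plus), Lrp8 chr4:107802261-107876840 (plus), Lrp4 chr2:91457511-91513779 (plus) and Lrp6 chr6:134446476-134566965 (minus). Lrp5 spans chr19:3584828-3686564 (minus) and Sorl1 chr9:41964720-42124297 (minus).

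Promoter sequences (250 bases before to 50 bases after the transcription start, RefSeq, GRCm38.p6) were matched for 6 of the 9 members, with Lrp4, Lrp5 and Lrp6 not matched. The promoters of Lrp1 and Lrp10 are printed because these genes had similar profiles across the libraries, and that of Lrpap1 because its level did not follow theirs over all libraries. Capitals mark a GC box, searched as GGGCGG on both strands. Lrp1 is chr10:127621099-127621398 (minus), Lrp10 is chr14:54463897-54464196 (plus) and Lrpap1 is chr5:35105650-35105949 (minus).
Lrp1: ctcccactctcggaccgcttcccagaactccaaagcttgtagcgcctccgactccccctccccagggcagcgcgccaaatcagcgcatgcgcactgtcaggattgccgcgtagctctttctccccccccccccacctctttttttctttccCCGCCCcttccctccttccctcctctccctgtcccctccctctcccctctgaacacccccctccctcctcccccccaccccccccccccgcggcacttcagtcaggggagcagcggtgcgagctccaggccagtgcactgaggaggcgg
Lrp10: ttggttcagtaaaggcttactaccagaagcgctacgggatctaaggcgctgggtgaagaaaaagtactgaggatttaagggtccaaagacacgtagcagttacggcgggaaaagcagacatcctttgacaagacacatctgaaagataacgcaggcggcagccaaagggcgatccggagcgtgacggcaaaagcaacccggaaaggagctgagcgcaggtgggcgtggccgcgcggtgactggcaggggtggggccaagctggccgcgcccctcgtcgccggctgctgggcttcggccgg
Lrpap1: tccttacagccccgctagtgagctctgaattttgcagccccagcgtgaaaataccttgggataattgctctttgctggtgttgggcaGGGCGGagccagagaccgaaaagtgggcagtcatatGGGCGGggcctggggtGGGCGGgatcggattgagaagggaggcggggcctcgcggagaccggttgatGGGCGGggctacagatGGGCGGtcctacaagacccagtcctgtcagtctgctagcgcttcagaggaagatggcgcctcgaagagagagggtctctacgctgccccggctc
The sequences hold 67.7% G and C in Lrp1, 60.0% in Lrp10 and 61.3% in Lrpap1, where the median over 32851 promoters of this length was 52.7%. The GC box was found 1 time in Lrp1, 0 times in Lrp10 and 5 times in Lrpap1, and 35.7% of all promoters held at least 1. The letters CACCCCAC, taken as the core of a sterol regulatory element, and TATAAA, the TATA box, were also searched on both strands. None of the 6 matched members held either in these windows, against 2.87% and 13.6% of all promoters. These are matches of letters in a window and were not tied to the measured levels.

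Libraries that stood apart were identified before the members were compared. Total counts ranged from 1104611 to 13207018 per library, and 11930 to 16109 genes had at least 1 read. The share of reads on the 50 most abundant genes fell into 2 ranges, 13.4 to 20.2% in 17 libraries and 23.4 to 34.6% in the other 17. The lower range held all 4-week libraries, all of 16 L and replicates 1 and 2 of 16-week CD (14.9% and 15.5%). The upper range held all of 16 C, 16-week HFD and the low weight gainers and the remaining 4 libraries of 16-week CD. The leptin and saline groups lay wholly in opposite ranges, so treatment and this property of the libraries cannot be told apart. All 10 cumulus and granulosa markers had reads in every group, and their summed level was 761 to 2503 RPM (reads scaled to 1000000 total counts per library) in 33 libraries. In 16 L replicate 18 this sum was 135 RPM, with 29690 RPM of oviduct markers and 9805 RPM of red blood cell markers. Replicate 21 of 16 L had 2215 RPM of oviduct, 2549 RPM of red blood cell and 67.0 RPM of theca and stroma markers with 915 RPM of cumulus markers. Log2 fold changes of members that rest on 16 L replicate 18 or on 16-week CD replicates 1 and 2 are given with and without them. Counts of other genes and their values in 16 L are given with replicate 18 included.

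Lrp1 encodes a large endocytic receptor for apolipoprotein E, alpha-2-macroglobulin and protease-inhibitor complexes. Its level was 334, 232, 280, 556 and 329 RPM in 4-week CD and 197, 115, 324, 318 and 267 RPM in 4-week HFD. In 16-week CD it was 456 and 391 RPM in replicates 1 and 2, and 74.0, 67.4, 121 and 35.9 RPM in replicates 13, 5, 8 and 9. In 16-week HFD it was 17.6, 25.6, 25.9, 30.9, 31.8, 35.9 and 39.5 RPM, and in the low weight gainers 98.7, 106 and 120.2 RPM. The 4-week groups overlapped, and 16-week HFD held the lowest levels of the diet protocol, overlapping 16-week CD only through replicate 9 of that group. The 3 low weight gainers lay above all 7 libraries of 16-week HFD. In the leptin protocol, Lrp1 was at 30.7, 47.8 and 29.4 RPM in 16 C and at 16.0, 169.6, 171, 200.1 and 255 RPM in 16 L, with replicate 18 the only leptin library under the saline range. In bulk samples such as these, fewer cells of a type and less RNA per cell cannot be told apart.

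By mean, the groups ran from 4-week CD (346 ± 124 RPM, SD, n = 5) through 4-week HFD (244 ± 88.7, n = 5), 16-week CD (191 ± 183, n = 6), 16 L (162 ± 88.9, n = 5) and the low weight gainers (108 ± 11.0, n = 3) to 16 C (36.0 ± 10.2, n = 3) and 16-week HFD (29.6 ± 7.28, n = 7). Only the step from the low weight gainers to 16 C (72.2 RPM) was larger than the larger SD of its pair, and the other neighbours in this order did not differ beyond their spread.

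**Figure D1:**
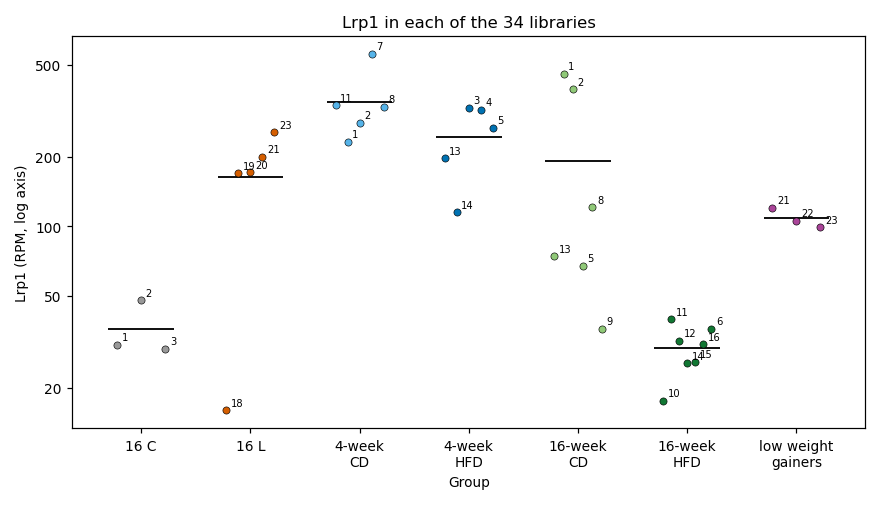
Lrp1 in each of the 34 libraries, in RPM on a log axis, by group. Points are libraries with their replicate numbers and bars are group means. 16-week HFD (17.6 to 39.5 RPM) lies below the low weight gainers (98.7 to 120.2 RPM), and 16-week CD replicates 1 and 2 lie above the other 4 of their group.

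These values of Lrp1 in the 16-week groups are those that chose the set. The log2 fold change of Lrp1 in 16-week HFD against 16-week CD was −2.17 (SE 0.409), estimated by edgeR on read counts scaled by the trimmed mean of M values (TMM). Without 16-week CD replicates 1 and 2 it was −1.11 (SE 0.239), and the CD mean was 74.5 ± 35.0 RPM (n = 4). That value compares libraries of the upper range alone. In the low weight gainers against 16-week HFD the log2 fold change was 1.71 (SE 0.200), a ratio of mean RPM of 3.66, and it ranged from 1.64 to 1.87 over 20 alternative analyses. Against 16-week CD it was −0.41 (SE 0.588), and 0.59 (SE 0.306) without CD replicates 1 and 2. The order of the low weight gainers and CD thus turned on these 2 libraries. All 8 macrophage markers had reads in each of these groups, with sums of 81.4 to 393 RPM in 16-week CD, 87.4 to 587 RPM in 16-week HFD and 208 to 310 RPM in the low weight gainers, and medians of 178, 251 and 243 RPM. The 4 oviduct markers had medians of 17.6, 52.4 and 17.97 RPM in the same order, with Foxj1 at 0 in all 3 groups. The share of mitochondrial reads was 0.902 to 2.31% in CD, 0.786 to 1.53% in HFD and 0.337 to 0.614% in the low weight gainers, which did not overlap the others. The part of these measures in the Lrp1 levels was not tested.

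Of the 9 members, 0 passed an adjusted p of 0.05 in 16-week HFD against CD, where 0.00921% of the 10861 genes tested were called higher and 0.0184% lower and 2747 genes had an unadjusted p under 0.05. DESeq2 called 2 members there, Lrp1 and Lrp10. In the low weight gainers against 16-week HFD, 1 member was called higher (Lrp1) and 2 lower (Lrp8 and Vldlr), against 10.8% and 9.93% of 11258 genes. Both comparisons were used to choose the set, and nothing is read from these counts.

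Lrpap1 encodes the receptor-associated protein, a chaperone of the endoplasmic reticulum that keeps newly made receptors of the family from binding ligands too early. Its level per length had a mean over the groups of 23.4 RPM per kilobase of merged exon, and 20.7 without 16 L replicate 18. It was 83.3, 46.7 and 62.9 RPM in 16 C, and 77.1, 46.9, 58.8 and 55.8 RPM in 16 L apart from replicate 18, which had 443 RPM. The groups overlapped, and a single leptin library was far above all others. The low weight gainers (116, 102 and 154 RPM) overlapped 16-week HFD (54.8 to 104 RPM, median 85.2) and 16-week CD (64.3 to 172 RPM, median 95.8).

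Vldlr encodes a receptor for triglyceride-rich lipoproteins and reelin. Per length it was close to Lrpap1, at 21.4 RPM per kilobase, and 21.7 without 16 L replicate 18. It was 205, 338, 194, 318, 342, 319 and 342 RPM in 16-week HFD and 177, 132 and 163 RPM in the low weight gainers, with no overlap between these groups. As a description, the log2 fold change was −1.06 (SE 0.214). The 16-week CD libraries (220.1 to 319 RPM, median 289) lay within the range of 16-week HFD, replicates 1 and 2 (298.5 and 309 RPM) included. Vldlr did not show the split of Lrp1 between the 2 ranges of libraries: apart from 16 L replicate 18 (29.5 RPM), it spanned 139 to 346 RPM in the lower range and 108 to 342 RPM in the upper.

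Lrp8, also called ApoER2, encodes the second reelin receptor, and its level fell in 4-week HFD. It was 30.8, 35.7, 41.1, 62.4 and 85.7 RPM in 4-week CD and 20.7, 24.0, 18.6, 18.8 and 12.0 RPM in 4-week HFD. All 5 HFD libraries lay below all 5 CD libraries. The log2 fold change was −1.28 (SE 0.292, adjusted p = 0.02895 by edgeR's quasi-likelihood test, Benjamini-Hochberg adjusted over 11727 genes). Of the 9 members, 0 were called higher and 1 lower, against 1.19% and 3.06% of all genes tested. The direction of Lrp8 was kept in all 19 alternatives, from −1.59 to −1.05, whereas its adjusted p ranged from 0.0002235 to 0.4733 and passed 0.05 in 10 of them. The call was lost without any one of CD replicates 2, 7 and 8 or of HFD replicates 13, 3, 4 and 5, with adjusted p from 0.05203 to 0.09614 by edgeR's test. HFD replicate 5, with the lowest Lrp8 level, had 319 RPM of oocyte markers, where the others of its group had 0.648 to 3.37 RPM. In 4-week CD these markers summed to 8.07, 7.08 and 10.4 RPM in replicates 2, 7 and 8, which had the highest Lrp8 levels, and to 0.892 and 0.757 RPM in replicates 11 and 1. The part of these cells in the result was not tested. Without that library the log2 fold change was −1.15.

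Lrp8 was low in the 16-week groups as well. It was 8.86 to 31.3 RPM in 16-week CD (median 16.3), with 31.3 and 26.2 RPM in replicates 1 and 2, 7.07 to 12.95 RPM in 16-week HFD (median 9.15), and 7.26, 5.25 and 2.53 RPM in the low weight gainers. The log2 fold change of the low weight gainers against 16-week HFD was −1.06 (SE 0.343), where their ranges overlapped by 1 library of the low weight gainers. In 16 L it was 6.11, 15.9, 44.7, 21.7 and 45.9 RPM and in 16 C 5.03, 12.0 and 4.77 RPM, a difference that did not pass the test (log2 fold change 0.90, SE 0.626). It passed in 2 of 17 alternatives, at 1.75 with voom and at 2.06 with library totals without replicate 18, and was −0.14 with the top 50 share as a covariate.

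The other 8 members did not pass the test in 4-week HFD. Lrp1 had a log2 fold change of −0.38 (SE 0.293, adjusted p = 0.4296 by edgeR's test), and the values of Lrp4 (0.71, SE 0.419), Lrpap1 (0.55, SE 0.265) and Lrp10 (0.44, SE 0.276) were positive. Those of Lrp6 (−0.34, SE 0.204), Sorl1 (−0.28, SE 0.273) and Vldlr (−0.04, SE 0.266) were negative, and that of Lrp5 was 0.16 (SE 0.291). Lrp6 was 119.5, 138, 119.6, 163 and 116 RPM in 4-week CD and 113, 77.6, 92.8, 102 and 97.6 RPM in 4-week HFD, which did not overlap, and it passed the test in 1 of 19 alternatives (voom, adjusted p = 0.04272 by limma). Lrp10 (0.75, adjusted p = 0.003886 by limma) and Lrpap1 (0.58, adjusted p = 0.02331) also passed with voom and in no other alternative. The median over all genes tested was −0.0098, and that over the members −0.036.

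**Figure D2:**
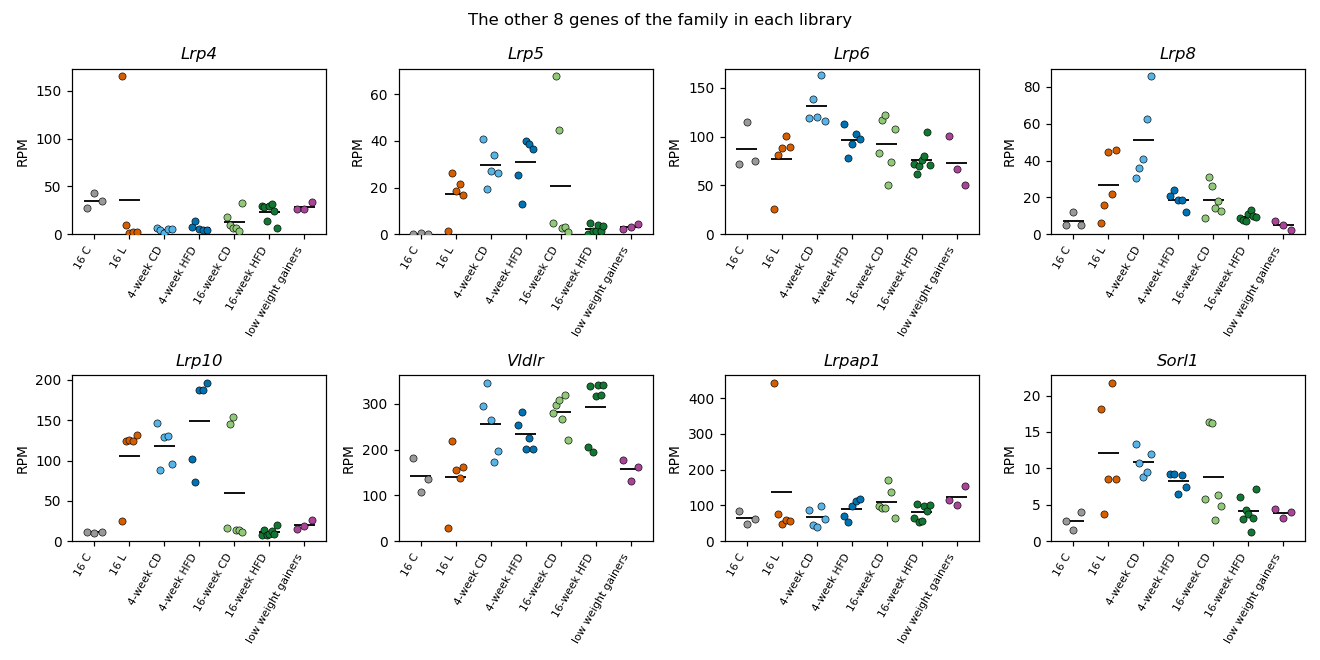
Levels of the 8 members other than Lrp1 in the 34 libraries by group, in RPM on a linear axis with 1 panel a gene. Points are libraries and bars are group means. Lrp8 in 4-week HFD (12.0 to 24.0 RPM) lies below 4-week CD (30.8 to 85.7 RPM), and Lrp5 and Lrp10 fall into a high and a low set of libraries.

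LRP5 and LRP6 are co-receptors that bind Wnt ligands together with Frizzled proteins. Lrp5 was at 0, 0.681 and 0 RPM in 16 C (0, 9 and 0 reads) and at 1.49, 26.3, 18.7, 21.7 and 17.0 RPM in 16 L. The 0 reads allow up to 1.68 and 0.796 RPM in these libraries, a limit that covers counting error only. All 5 leptin libraries lay above the saline libraries as counted, but replicate 18 was within the first of these limits. The log2 fold change was 4.53 (SE 1.12, adjusted p = 0.04014 by edgeR's quasi-likelihood test), a value that rests on 9 saline reads. Lrp5 passed the filter on low counts through the 16 L libraries, where it was high, so nothing is read from this p. With no filter the adjusted p was 0.05388 by edgeR's test. Lrp6 was at 71.5, 115 and 74.5 RPM in 16 C and at 25.9, 81.1, 88.2, 100.5 and 89.2 RPM in 16 L, where the groups overlapped and the test was not passed (log2 fold change −1.07, SE 0.383, adjusted p = 0.09615 by edgeR's test).

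Lrp10, a small member of the family that moves between the Golgi, endosomes and the cell surface, had the other call. It was 11.2, 9.62 and 11.9 RPM in 16 C and 124, 125, 124 and 132 RPM in 4 libraries of 16 L, with 25.5 RPM in replicate 18. All 5 leptin libraries lay above the saline libraries. The log2 fold change was 2.40 (SE 0.462, adjusted p = 0.02327 by edgeR's quasi-likelihood test), and the ratio of mean RPM was 9.71. The log2 fold change uses TMM scaling and the ratio uses total counts, and the median log2 fold change over all 11723 genes was 0.27 with the first and 1.07 with the second.

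Of the 9 members, 2 were thus called higher (Lrp5 and Lrp10) and 0 lower in 16 L, against 4.06% and 4.5% of all genes tested. The call of Lrp5 rests on a filter that it passed through 16 L, and with no filter 1 member and 504 of 18962 genes were called. Both calls were kept without 16 L replicate 18 or replicate 19 and lost without any other single library of the 8, controls included. The adjusted p in these fits ranged from 0.001311 to 0.1643 for Lrp5 and from 8.894e-05 to 0.1225 for Lrp10 by edgeR's test, with log2 fold changes of 2.33 to 2.54 for Lrp10. Those of Lrp5 were 4.11 to 4.59, leaving aside the fit without 16 C replicate 2, in which both remaining saline libraries have 0 reads. Over all alternatives Lrp5 passed the test in 8 of 17 and Lrp10 in 11 of 18. With the top 50 share as a covariate neither passed, and Lrp10 turned to −0.16 and Lrp5 was 3.59. The 4 oviduct markers summed to 9.77 to 29690 RPM in 16 L (median 1427) and 19.6 to 68.8 RPM in 16 C, with Foxj1 at 0 in 16 C. The 3 red blood cell markers summed to 3.74 to 9805 RPM in 16 L and 1.06 to 19.3 RPM in 16 C. Without replicate 21, the log2 fold change was 4.47 for Lrp5 (adjusted p = 0.08012 by edgeR's test) and 2.36 for Lrp10 (0.05799). The 8 macrophage markers summed to 94.7 to 1796 RPM in 16 L and 73.5 to 465.5 RPM in 16 C. Oocyte markers summed to 3.02 to 14.9 RPM in 16 L and 0.909 to 1.33 RPM in 16 C, and theca and stroma markers to 3.02 to 1318 RPM and 0.559 to 2.27 RPM, and neither of these sums overlapped between the groups. The part of these cells in the leptin differences was not tested.

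Without 16 L replicate 18, 3 members were called higher and 4 lower, where 41.8% of the 11077 genes tested were called in either direction. With all 8 libraries Lrp1 had a log2 fold change of 1.24 (SE 0.635, adjusted p = 0.2049 by edgeR's test), and it passed the test in 4 of 18 alternatives, with values from −1.91 to 2.455 and the negative one from the top 50 share as a covariate. Without replicate 18 it was 1.42 (SE 0.311, adjusted p = 0.005803 by edgeR's test), and Lrp5 had 4.59 and Lrp10 2.54. Lrp4 had −3.91 (SE 0.562, adjusted p = 0.0006622 by edgeR's test), Lrpap1 −1.06, Lrp6 −0.99 and Vldlr −0.70. In this fit Lrp4 passed the filter on low counts through 16 C, where it was high, and Lrp5 through 16 L. Nothing is read from the p of either gene, and both are in the counts of members called. The count of members is to be read beside that share. The directions of Lrp6 and Vldlr and the call of Lrpap1 depend on TMM scaling. Mean RPM in these 4 leptin libraries and in 16 C was 89.7 and 86.9 for Lrp6, 169 and 142 for Vldlr, and 59.7 and 64.3 for Lrpap1. With library totals in the same fit the log2 fold changes were 0.04, 0.26 and −0.09, and none of the 3 passed the test, while the median over all genes was 1.09 in place of 0.10. Lrp1 (2.455), Lrp5 (5.63), Lrp10 (3.54), Lrp8 (2.06) and Lrp4 (−2.93) kept their directions there.

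Lrp5 and Lrp10 also divided the 16-week CD libraries. Lrp10 was 146 and 155 RPM in 16-week CD replicates 1 and 2 and 11.1 to 15.9 RPM in the other 4, against 8.14 to 20.1 RPM in 16-week HFD. Lrp5 was 67.5 and 44.7 RPM in these 2 libraries and 1.05 to 4.87 RPM in the other 4, against 0 to 4.72 RPM in 16-week HFD. In HFD against CD the log2 fold change was −1.80 (SE 0.526) for Lrp10 and −2.55 (SE 0.802) for Lrp5. Without CD replicates 1 and 2 it was −0.08 (SE 0.250) and −0.07 (SE 0.627), so that the difference in these genes was carried by these 2 libraries. The Lrp1 difference given above was also smaller without them. In the low weight gainers Lrp10 was 15.4, 18.98 and 25.8 RPM and Lrp5 2.22, 3.00 and 4.30 RPM.

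**Figure D3:**
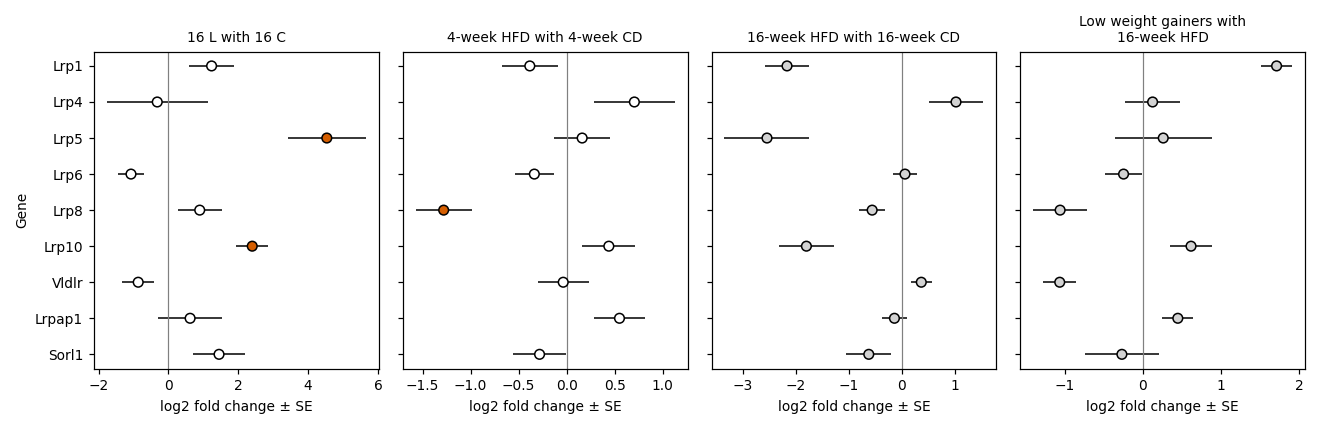
Log2 fold changes of the 9 members in each comparison, with error bars of 1 SE, estimated by edgeR with TMM scaling. Filled orange points passed an adjusted p of 0.05 and white points did not, and grey points belong to the comparisons that chose the set. Lrp1 in 16-week HFD against CD is at −2.17 and in the low weight gainers against HFD at 1.71, Lrp8 in 4-week HFD is at −1.28, and Lrp5 and Lrp10 in 16 L are at 4.53 and 2.40.

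LRP4 binds agrin and inhibitors of Wnt signalling. Lrp4 ran opposite to Lrp1 across the libraries. It was 27.4, 43.3 and 35.0 RPM in 16 C and 9.41, 1.70, 2.72 and 2.23 RPM in 16 L, with 165 RPM in replicate 18. In the diet groups it was 1.47 to 6.47 RPM in 4-week CD, 4.43 to 13.5 RPM in 4-week HFD, 3.82 to 32.5 RPM in 16-week CD, 6.96 to 31.2 RPM in 16-week HFD and 26.2 to 33.9 RPM in the low weight gainers. Its leptin difference had a log2 fold change of −0.32 (SE 1.44, adjusted p = 0.9012 by edgeR's test) with replicate 18, and the value without it is given above. Replicate 18 had 1318 RPM of theca and stroma markers as well as the oviduct markers, and their part in its Lrp4 and Lrpap1 levels was not tested.

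SORL1 sorts cargo such as the amyloid precursor protein between endosomes and the Golgi. Sorl1 had the lowest level per length by the mean over groups, at 0.641 RPM per kilobase. By group, Sorl1 was above Lrp5 in 16 C (0.244 and 0.0233), 16-week HFD (0.360 and 0.245) and the low weight gainers (0.346 and 0.326). It was 2.79, 1.51 and 3.98 RPM in 16 C and 18.2, 3.74, 8.48, 21.7 and 8.48 RPM in 16 L, and these groups overlapped by 1 library. It was 8.80 to 13.4 RPM in 4-week CD and 6.47 to 9.25 RPM in 4-week HFD. In 16 L against 16 C the log2 fold change was 1.45 (SE 0.743, adjusted p = 0.2036 by edgeR's test). It passed the test in 3 of 17 alternatives, with library totals (adjusted p = 0.04492 by edgeR's test), with all 34 libraries in one fit (0.04634) and with library totals without replicate 18 (0.03556). With TMM scaling and without replicate 18 the log2 fold change was 0.93 (adjusted p = 0.2861 by edgeR's test). In the fits of 16 L and 16 C alone, Sorl1 passed the filter on low counts through 16 L, where it was higher, so nothing is read from their p-values. In 4-week HFD Sorl1 did not pass the test.

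**Figure D4:**
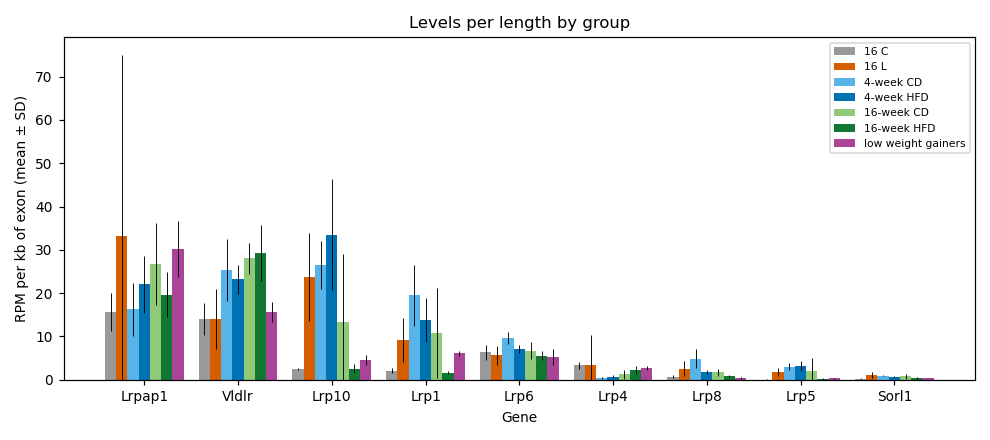
Mean level of each member per group, in RPM per kilobase of merged exon (GENCODE M21), with error bars of 1 SD over libraries. Lrpap1 and Vldlr have the highest means over groups, 23.4 and 21.4 (20.7 and 21.7 without 16 L replicate 18), and Sorl1 the lowest, 0.641.

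Per length the order of the means over groups was Lrpap1, Vldlr, Lrp10 (15.2 RPM per kilobase), Lrp1 (9.01), Lrp6 (6.62), Lrp4 (2.02), Lrp8 (1.87), Lrp5 (1.52) and Sorl1. Without 16 L replicate 18, Vldlr (21.7) came before Lrpap1 (20.7), and Lrp8 (1.94) before Lrp4 (1.58). The ratio of the highest to the lowest group mean was largest in Lrp5 (0.0233 to 3.15 RPM per kilobase) and smallest in Lrp6 (5.32 to 9.60). Lrp1 ranged from 1.67 to 19.5 and Lrp10 from 2.44 to 33.5 RPM per kilobase between groups, so the rank of these genes depended on the group.

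The levels of several members moved with the share of reads on the 50 most abundant genes. With 16 L replicate 18 left out, Lrp10 was 73.1 to 196 RPM (median 130.0) in the 16 libraries of the lower range and 8.14 to 25.8 RPM (median 12.7) in the 17 of the upper. Lrp5 was 12.9 to 67.5 RPM and 0 to 4.87 RPM. Neither gene overlapped between the ranges. Lrp1 overlapped only between 115 and 121 RPM, with medians of 273 and 35.9 RPM. Lrp4 was lower where the others were higher, at 1.47 to 13.5 RPM (median 5.56) and 3.82 to 43.3 RPM (median 27.4). Lrp8 was 12.0 to 85.7 RPM (median 28.5) in the lower range and 2.53 to 18.3 RPM (median 8.86) in the upper, and Sorl1 had medians of 9.22 and 3.98 RPM. Lrp6, Vldlr and Lrpap1 overlapped broadly, with medians of 108 and 74.4, 222 and 220.1, and 73.7 and 98.3 RPM. These ranges were defined after the data were seen, and their part in the leptin differences was not tested.

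**Figure D5:**
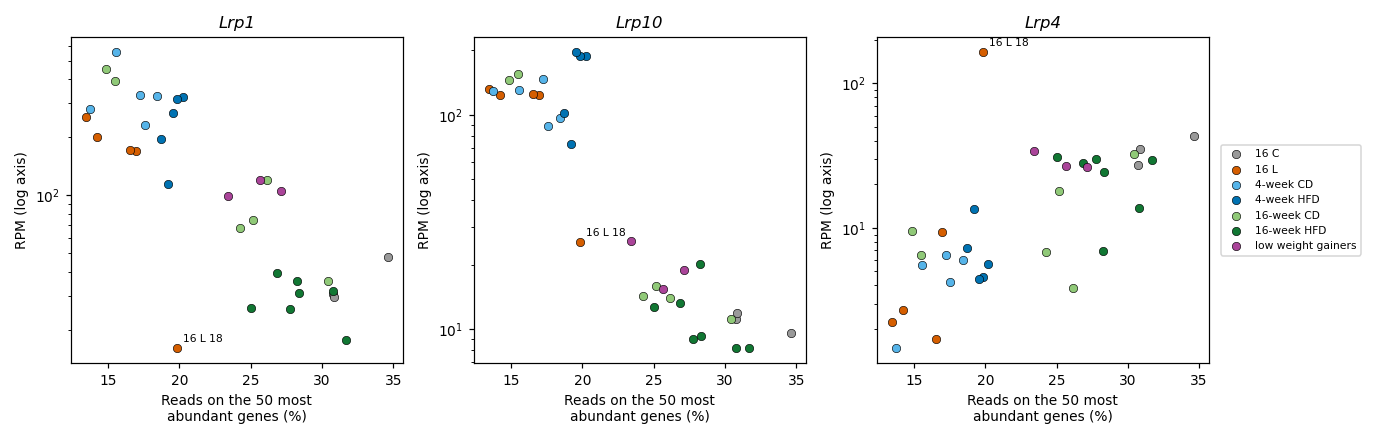
Levels of Lrp1, Lrp10 and Lrp4 (RPM, log axis) against the share of reads on the 50 most abundant genes of each library (%). Points are libraries coloured by group. Lrp10 is at 73.1 RPM or more in the lower range of shares and at 25.8 RPM or less in the upper, with 16 L replicate 18 (25.5 RPM) as the exception.

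Likeness of profile to Lrp1 was measured by Spearman's rho over the 34 libraries among 13236 genes, as a description. The libraries share groups and the 2 ranges of the top 50 share. The highest values were those of Epb4.1l1 (0.959), Sbf1 (0.943), 8430419L09Rik (0.942), Mbp (0.939) and Sympk (0.934). Within the 16 libraries of the lower range and the 17 of the upper, these 5 genes had a rho of 0.641 to 0.882 and 0.752 to 0.860. After the group means were removed they were Sbk1 (0.891), Slc35e1 (0.869), Ier3 (0.869), Mms19 (0.858) and Epb4.1l1 (0.853), so that 1 of the 5 genes was in both sets. Within the lower and the upper range the first 4 of these had a rho of 0.818 and 0.0539, 0.238 and 0.552, 0.332 and 0.324, and 0.485 and 0.733. Among the members, Lrp5 (0.877) and Lrp10 (0.841) were most like Lrp1, and Lrp4 (−0.756) least, with Lrpap1 at −0.486. Within the lower and the upper range, rho was 0.832 and 0.317 for Lrp5, 0.535 and 0.569 for Lrp10, 0.550 and 0.534 for Lrpap1, and 0.0765 and −0.343 for Lrp4.

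Genes that work with the members were counted from lists chosen by function, to be read beside the shares of all genes called (4.06% higher and 4.5% lower in 16 L, 1.19% and 3.06% in 4-week HFD). The counts in 16 L include replicate 18, without which 41.8% of 11077 genes were called in either direction. None of the 7 other family members tested, nor any LRP1 ligand (15 tested in 16 L and 14 in 4-week HFD), passed the test in 16 L or 4-week HFD by edgeR. At an unadjusted p under 0.05, 3 of the family and 3 ligands passed in 16 L and 0 and 4 in 4-week HFD. Over all genes 3798 of 11723 passed at that threshold in 16 L and 2845 of 11727 in 4-week HFD. DESeq2 called 3 and 2 in 16 L and 0 and 2 in 4-week HFD. Its share over all genes is not given here, so nothing is read from its counts in these lists. The median log2 fold change of the other family members in 16 L was 1.57 and that of the ligands 0.63, beside 0.27 for all genes. Among 21 genes of LRP1 processing and endocytosis, 7 had an unadjusted p under 0.05 in 16 L and DESeq2 called 6. By edgeR 1 rose and 1 fell in 16 L. Adam10, a sheddase of membrane proteins, was 639 ± 97.8 RPM (SD, n = 5) in 16 L and 2663 ± 526.4 RPM (n = 3) in 16 C, with a log2 fold change of −2.85 (SE 0.445, adjusted p = 0.01311 by edgeR's test). Ap2a1, a subunit of the clathrin adaptor AP2, was 18.7 ± 9.49 RPM and 0.843 ± 0.516 RPM (log2 fold change 3.35, SE 0.730, adjusted p = 0.03026 by edgeR's test). Ap2a1 was low in 16 C and passed the filter on low counts through 16 L, so nothing is read from its p. In 4-week HFD 0 of the 21 passed the test, with 6 at an unadjusted p under 0.05 (2845 of 11727 over all genes) and 3 called by DESeq2.

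Of 16 partners of the Wnt co-receptors tested in 16 L, 5 had an unadjusted p under 0.05 and DESeq2 called 4. The counts over all genes given above apply here too. By edgeR 0 rose and 1 fell. Znrf3, a ubiquitin ligase that removes Frizzled and LRP6 from the cell surface, was 74.1 ± 45.4 RPM (n = 5) in 16 L and 406 ± 71.8 RPM (n = 3) in 16 C, with a log2 fold change of −3.10 (SE 0.608, adjusted p = 0.0242 by edgeR's test). In 4-week HFD 6 of 16 had an unadjusted p under 0.05 and DESeq2 called 4. By edgeR 1 rose and 1 fell. Both are Wnt receptors, Fzd6 at 32.3 ± 6.32 against 16.5 ± 6.22 RPM (log2 fold change 1.06, SE 0.259, adjusted p = 0.03555 by edgeR's test) and Fzd2 at 1.76 ± 0.344 against 7.38 ± 5.51 RPM (−1.87, SE 0.467, adjusted p = 0.0384). Fzd2 was low in 4-week HFD and passed the filter on low counts through 4-week CD, so nothing is read from its p. Of 12 genes of the retromer route used by SORL1, 2 were called higher in 16 L and 0 lower, the adaptors Gga2 (log2 fold change 1.33, SE 0.351, adjusted p = 0.04652 by edgeR's test) and Gga1 (2.34, SE 0.616, adjusted p = 0.04688). Gga1 was low in 16 C (3.69 ± 2.71 RPM) and passed the filter on low counts through 16 L, so nothing is read from its p. In 16 L 6 of the 12 had an unadjusted p under 0.05 and DESeq2 called 5. In 4-week HFD edgeR called 0 of them, 4 had an unadjusted p under 0.05 and DESeq2 called 2. None of 8 agrin and reelin pathway genes passed the test in 16 L or 4-week HFD by edgeR. There 2 and 4 had an unadjusted p under 0.05 (3798 of 11723 and 2845 of 11727 over all genes), and DESeq2 called 2 and 1. In 16-week HFD against CD no gene of these lists was called by edgeR, where 3 of 10861 genes were called in all. In the low weight gainers against 16-week HFD, where the background was 10.8% higher and 9.93% lower, 1 of 7 other family members was called higher and 0 lower, and 0 of 14 ligands higher and 2 lower. Of 20 processing genes 4 were called higher and 2 lower, of 13 Wnt partners 2 and 1, of 8 agrin and reelin genes 0 and 1, and of 12 retromer genes 3 and 1. These counts come from a comparison that chose the set and are a description.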

How the data were processed

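Per the labels, RNA of about 50 CCs was copied and amplified by Smart-seq2 with an oligo-dT primer, without molecular identifiers. The submitters' processing notes name Trim Galore 0.4.2, HISAT2 2.0.5 and GRCm38, and the program that counted reads is not given in the sources used here. The authors deposited whole-number read counts per gene and library, without normalization. The labels gave each library its group and its replicate number. The labels do not name the animal of each library, so p-values measure only the spread between these libraries, which may in part be technical. No pair of replicates was identical among the 72 checked, with a chi-square per degree of freedom of 3.26 or more.

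From the counts, RPM was computed as reads scaled to 1000000 total counts, and per kilobase of merged exon (GENCODE M21) where genes were compared with each other. Each comparison was fitted on the libraries of its own groups in R 4.3.3 with edgeR 4.0.16 (TMM, filterByExpr, two-sided robust quasi-likelihood F-test). Standard errors were derived from the F statistic, and p-values were adjusted over all genes tested, with a threshold of 0.05. All 9 members passed the filter on low counts in every comparison. A count of 0 was taken to allow 3 reads at 95% confidence. The alternatives were DESeq2 1.42.0, voom with sample quality weights in limma 3.58.1, RLE factors, scaling by library totals, no filter, a minimum of 10 counts in each library, one fit of all 34 libraries or of the 3 16-week groups, genes detected as a covariate and leaving out each replicate. The top 50 share as a covariate and the fit without 16-week CD replicates 1 and 2 and library totals without 16 L replicate 18 were added after seeing the data.

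The members, the gene lists and the tests were chosen with earlier results of these data known. The genes named are the 9 members, the 5 genes most like Lrp1 before and after removal of group means, and list genes past the threshold, at most 4 per list and comparison. Red blood cell markers were 3 of 5 found in the table.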

Additional observations from a re-analysis of the deposited data

Results flagged for a closer look

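In 45 combinations of a member and a group of 4 to 10 libraries, 6 had 1 library far from the others of its group by Dixon's 95% critical value, which chance passes in about 1 of 20 groups. The 4 flags that belong to the leptin group all fall on replicate 18. Lrp4 was 165 RPM there against 9.41 RPM in the next library, and Lrpap1 was 443 against 77.1 RPM. Lrp6 was 25.9 RPM against 81.1 RPM in the next, and Lrp10 was 25.5 against 124 RPM. In 16-week HFD, Lrp6 in replicate 16 was 104 RPM against 79.9 RPM in the next library, and Lrp10 in replicate 6 was 20.1 against 13.3 RPM. The part of other cell types in these values was not tested.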

How the results depend on the processing

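In 16 L, 2 members and 1004 of 11723 genes were called. Voom called 8 members and 7553 genes, and library totals 4 and 3966. All 34 libraries in one fit gave 5 members and 4383 of 13236 genes. Library totals without replicate 18 gave 6 and 6692 of 11077. No filter gave 1 and 504 of 18962, at least 10 counts in every library 1 and 912 of 7674, and genes detected as a covariate 1 and 607. The top 50 share as a covariate gave 0 and 0. Leaving out each replicate gave 0 to 7 members and 30 to 4635 genes. Without replicate 18, 7 members were called, where 41.8% of 11077 genes were. The counts of members in this paragraph moved with those over all genes and are to be read beside them, and nothing is read about the members from them. In 4-week HFD, where 1 member and 499 of 11727 genes were called, voom gave 4 and 4048. All 34 libraries gave 0 members and 69 of 13236 genes, and the top 50 share 0 and 0. Leaving out each replicate gave 0 to 1 members and 8 to 1700 genes. In 16-week HFD, where 0 members and 3 of 10861 genes were called, DESeq2 gave 2 and 1056, and no filter 1 and 13 of 17577. Library totals, all 34 libraries and the 3-group fit gave 3 members each, with 1622 of 10861, 1258 of 13236 and 786 of 11903 genes. Leaving out each replicate gave 0 to 4 members and 1 to 2217 genes. In the low weight gainers against 16-week HFD, where 3 members and 2330 of 11258 genes were called, all 34 libraries gave 1 and 487 of 13236. Leaving out each replicate gave 2 to 4 members and 596 to 2737 genes. The Lrp1 log2 fold change in 16-week HFD was −0.90 with the top 50 share and −1.11 without CD replicates 1 and 2, and −2.36 to −1.78 without each replicate. That of the low weight gainers against HFD was 1.64 to 1.83 without each replicate, and that against CD −0.57 to −0.064. The last reversed to 0.31 with voom, 0.41 with the top 50 share and 0.59 without CD replicates 1 and 2. In 16 L, Lrpap1 reversed to −1.20 with voom and −1.06 without replicate 18 (−1.06 to 0.87 without each replicate), and Lrp10 to −0.16 with the top 50 share. The cause of these shifts was not tested, and the top 50 share is nearly the same variable as treatment in this comparison. No paired analysis was possible because the groups compared share fewer than 2 replicate numbers in the labels. No permutation test or pseudocount alternative was run for members failing the filter, since none failed. Small groups limit each comparison, and Lrp5 and Sorl1 rest on few reads in the shallower libraries.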
